A study of Mus musculus with 16 samples.

Results

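The comparison sets mesoderm progenitors (MP) sorted on day 2 of differentiation (MP D2) against the undifferentiated mouse embryonic stem (ES) cells of the same study. Its members are 4 of the 16 Affymetrix Mouse Gene ST 1.0 arrays of the series, 2 of MP D2 and 2 of ES, and every gene with a probe set of its own was read, 18716 genes in all. All groups came from the TGFP/+; Foxa2tagRFP/+ line, in which a GFP insertion disrupts 1 allele of T (Brachyury) and Foxa2, an endoderm factor, is fused to tagRFP, so ES and MP cells alike carried 1 intact T allele. MP D2 cells spent 2 days on feeders that express Wnt3a, in an endoderm medium (activin A at 12 ng/ml). For mesoderm this medium had been supplemented with Bmp4 at 7.5 ng/ml and activin A at 3 ng/ml. Whether the 3 ng/ml came on top of the 12 ng/ml or in its place is not clear. MP D2 cells were sorted as T-positive cells with low CD24. ES cells were kept in 15% FCS and 1000 units/ml LIF on mitotically inactive mouse embryonic fibroblasts, and no gate is given for them. Medium, feeders, sorting and differentiation differed together between MP D2 and ES and cannot be told apart. The study's methods name G4 as the parental line where the sample labels name E14.1.

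Differences are given as log2 fold changes, MP D2 minus ES, with their standard error, so that a value of 1 is a 2-fold difference. A gene was called higher or lower in MP D2 when the log2 fold change was beyond 1 and the adjusted p of the limma fit below 0.05. Of the 18716 genes, 254 were called higher in MP D2, which is 1.36%, and 670 were called lower, which is 3.58%. These shares are the background for every count of called list members against ES given below. The median over all genes was 0.04. All 254 and all 670 had both MP D2 arrays on the same side of both ES arrays, as had 31.8% (above) and 25.1% (below) of all genes. Correlation between the replicates of a group ran between 0.987 and 0.994 over the 8 groups.

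The ES arrays carried transcripts of fibroblasts, and this touches every fall described here. The mean log2 signal over 40 measured fibroblast genes was 7.70 and 7.70 in MP D2, against 10.15 and 9.76 in ES, and it lay between 7.54 and 7.95 in the 14 sorted arrays. Of the 40 genes 29 were called lower in MP D2, with a median of −1.88, and 2 had a positive value. Of the defining markers, Thy1 (−3.26), Pdgfrb (−1.59), Col1a1 (−1.62) and Col1a2 (7.88 and 8.01 in MP D2, against 10.21 and 9.68 in ES) were called lower, while Col3a1 differed by −0.16 (adjusted p = 0.389). The Col1a1 call was lost when any 1 of the 4 arrays was left out (adjusted p 0.0985 to 0.183). ES replicate 1 was above ES replicate 2 for 35 of the 40 genes. Without ES replicate 1, 23 of the 40 were called lower. In bulk RNA, fewer cells of a type and less RNA per cell cannot be told apart.

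During gastrulation, epiblast cells respond to Nodal, Wnt and Bmp signals at the primitive streak, switch on T-box and homeobox factors, and leave the epithelium as mesoderm or endoderm. ES cells stand for the earlier, naive state of the epiblast, which differs from the later formative and primed states in its transcription factors while sharing a core of Pou5f1, Sox2 and Nanog. Several microRNAs follow the same transitions. The miR-302 cluster is known from the epiblast and from pluripotent cells, and most of its members hold, near the start of their sequence, a run of bases that part of the miR-17 family also holds there.

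Mature microRNAs are shown first because the loci of the Mir302 cluster had 4 of the 5 highest log2 fold changes of all genes. The sequences are RefSeq's for mouse (GRCm38.p6), with the seed (bases 2 to 8) in capitals. The entry for miR-302c-3p starts 1 base later than those of miR-302b-3p and miR-302d-3p, which shifts its seed.
miR-302b-3p: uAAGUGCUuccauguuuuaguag
miR-302d-3p: uAAGUGCUuccauguuugagugu
miR-302c-3p: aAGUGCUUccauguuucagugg
miR-17-5p: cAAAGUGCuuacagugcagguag
miR-20a-5p: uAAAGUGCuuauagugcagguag
miR-18a-5p: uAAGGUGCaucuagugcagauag
miR-367-3p: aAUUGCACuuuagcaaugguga
miR-92a-3p: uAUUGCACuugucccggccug
miR-19a-3p: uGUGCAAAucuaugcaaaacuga
miR-19b-3p: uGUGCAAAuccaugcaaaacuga
The run AAGUGC lies within the first 9 bases of the 3 miR-302 sequences and of miR-17-5p and miR-20a-5p. It does so in 19 of the 1679 mature sequences of the table, or 1.13%. miR-367-3p has the seed of miR-92a-3p, and miR-19a-3p has that of miR-19b-3p.

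The 5 hairpins of the Mir302 cluster lie within 580 bases of chromosome 3 (chr3:127545228-127545807, plus strand), at the locus of the protein-coding gene Larp7. All 5 microRNA loci were called higher in MP D2. The Mir302a probe set read 9.57 and 10.22 in MP D2, against 4.98 and 5.82 in ES, a log2 fold change of 4.49 ± 0.54 (SE, n = 2 arrays per group, limma adjusted p = 0.00015). Mir302c read 9.48 and 10.00 in MP D2 and 5.00 and 5.61 in ES (4.44 ± 0.46). Mir302b read 9.27 and 9.88 in MP D2 and 4.95 and 5.84 in ES (4.18 ± 0.54). At each of these loci the lower MP D2 array was more than 3 log2 units above the higher ES array. Mir302d read 10.02 and 10.22 in MP D2 and 5.55 and 6.77 in ES (3.96 ± 0.46), and Mir367, at the other end of the cluster, read 8.01 and 8.51 in MP D2 and 4.68 and 4.56 in ES (3.64 ± 0.34). Larp7, by contrast, differed by 0.42 ± 0.09 and was not called. The arrays read total RNA with probes to these loci, so that precursor and mature forms are not separated.

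**Figure D1:**
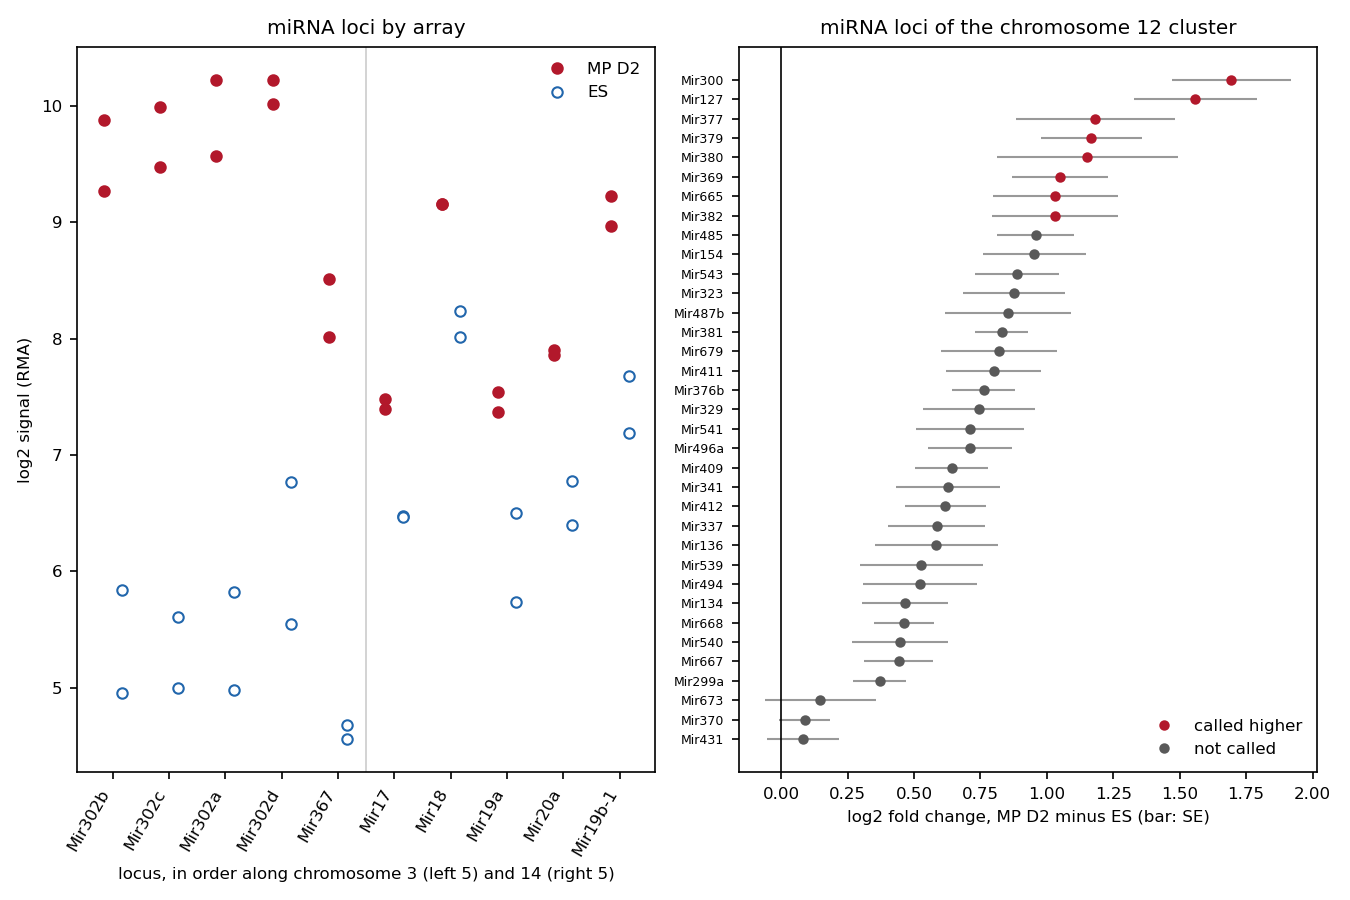
Left, log2 signal of the loci of the Mir302 and Mir17 clusters on each MP D2 array (filled) and ES array (open), with loci in chromosome order. Right, log2 fold change (MP D2 minus ES, bars are SE) of the 35 measured loci of the chromosome 12 cluster. Both MP D2 arrays lie above both ES arrays at all 10 loci on the left, and all 35 values on the right are above 0, 8 of them called.

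Over all microRNAs 233 loci were measured, of which 20 (8.58%) were called higher and 2 lower, against 1.36% and 3.58% of all genes. The calls were gathered in 3 places. Besides the 5 loci on chromosome 3, 4 of the 5 measured loci of the Mir17 cluster (hairpins chr14:115043671-115044506) were called higher. Mir19b-1 read 9.22 and 8.97 in MP D2, against 7.19 and 7.68 in ES (1.66 ± 0.18), and Mir20a read 7.86 and 7.91 in MP D2, against 6.40 and 6.78 in ES (1.29 ± 0.15). Mir19a (1.34 ± 0.25) and Mir18 (1.03 ± 0.19) were called too, but without ES replicate 1 they fell to 0.95 and 0.92 and lost the call. Mir17 itself, at 0.97 ± 0.10 (adjusted p = 5.21e-05), was just under the fold threshold and passed it without MP D2 replicate 1 (1.01).

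The third place was the imprinted region of chromosome 12, which encodes a large cluster of microRNAs expressed from the maternal allele together with the non-coding RNAs Meg3 and Rian. Of its 35 measured loci 8 were called higher, all 35 had a positive value, and their median was 0.75. Mir300 read 7.91 and 8.08 in MP D2, against 6.21 and 6.39 in ES (1.69 ± 0.22), and Mir127 read 8.86 and 9.13 in MP D2, against 7.43 and 7.44 in ES (1.56 ± 0.23). For both, the MP D2 arrays stood clear of the ES arrays. Mir379 followed at 1.17 ± 0.19. The remaining called loci, Mir377, Mir380, Mir369, Mir665 and Mir382, had values between 1.03 and 1.18, and each lost its call in at least 1 setting that left out an array (values of 0.62 to 1.27 there). Meg3 (0.10 ± 0.25, adjusted p = 0.865) and Rian (0.74 ± 0.27, adjusted p = 0.104) were not called. Among the other 188 loci, 3 were called higher (Mir717, Mir7-1 and Mirlet7d) and 2 lower (Mir145a and Mir6516), with 125 values above 0. Of these, Mirlet7d came to 0.95 without ES replicate 1, Mir7-1 to 0.97 and Mir6516 to −0.67 without ES replicate 2, and lost their calls.

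The sorting genes were read next. Foxa2, whose reporter marked the endoderm gate, read 7.73 and 8.26 in MP D2, against 7.32 and 7.71 in ES. Cd24a read 12.40 and 12.52 in MP D2, against 12.11 and 11.75 in ES. Neither was called (0.48 ± 0.21, adjusted p = 0.167, and 0.53 ± 0.12, adjusted p = 0.0126), so that the low-CD24 gate did not go with less Cd24a RNA than in ES. T was not analysed here.

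Primitive streak genes formed the list with the highest median, 1.11, and 9 of its 16 measured members were called higher in MP D2. Eomes, a T-box factor needed for mesoderm delamination and endoderm, read 11.84 and 11.82 in MP D2, against 9.01 and 8.60 in ES (3.02 ± 0.15, adjusted p = 1.3e-07). Mixl1, a homeobox factor of the streak, read 10.17 and 10.58 in MP D2 and 7.55 and 7.55 in ES (2.82 ± 0.17). Lhx1, which acts in the head organizer and the early mesoderm, read 9.44 and 9.40 in MP D2 and 6.47 and 6.74 in ES (2.81 ± 0.15). For all 3 the lower MP D2 array was more than 2 log2 units above the higher ES array, and the ligands made in the streak were higher too. Wnt3 (2.90 ± 0.14), Wnt8a (3.06 ± 0.10) and Fgf8 (2.58 ± 0.13) were called, as were the activin antagonist Fst (2.35 ± 0.29) and the posterior factor Evx1 (1.17 ± 0.11). Nodal itself, at 0.85 ± 0.10, passed the adjusted p but not the fold. Wnt3a, expressed by the feeders under the sorted cells, differed by 0.07 ± 0.40 (adjusted p = 0.938). The 1 member called lower was Lefty2, a Nodal antagonist.

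Nascent mesoderm genes were close behind, with 8 of 17 called higher, 16 of 17 positive and a median of 0.92. The peptide apelin and its receptor rose together. Apln read 11.41 and 11.39 in MP D2, against 8.05 and 8.28 in ES (3.24 ± 0.19), and Aplnr read 9.40 and 9.59 in MP D2, against 6.92 and 7.40 in ES (2.33 ± 0.18). Mesp1, the bHLH factor of the first cardiac and cranial mesoderm, read 8.26 and 8.13 in MP D2, against 6.50 and 6.44 in ES (1.73 ± 0.11, adjusted p = 1.26e-06). Its neighbour Mesp2, used later in somites, differed by 0.53 ± 0.17 (adjusted p = 0.0613). The presomitic genes Tbx6 (0.81 ± 0.08) and Msgn1 (0.11 ± 0.16) and the Notch ligand Dll1 (0.30 ± 0.13) were not called, nor was Pdgfra (0.14, adjusted p = 0.79), a receptor of early mesoderm.

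Genes of lateral and cardiac mesoderm were divided, with 4 of 19 called higher and 2 lower. Foxf1, a forkhead factor of lateral mesoderm, read 9.61 and 9.56 in MP D2, against 7.18 and 6.79 in ES (2.60 ± 0.14). Hand1, a bHLH factor of lateral and extraembryonic mesoderm, read 9.29 and 9.46 in MP D2, against 7.20 and 7.32 in ES (2.11 ± 0.11). Gata4, shared by cardiac mesoderm and endoderm, read 9.63 and 9.70 in MP D2, against 7.90 and 7.70 in ES (1.87 ± 0.13). In all 3 the arrays of the 2 groups were well apart. Msx2, a Bmp-responsive homeobox gene, was called at 2.22 ± 0.37, and Meis2, a Hox cofactor outside this list, at 2.23 ± 0.37. Tbx5, a later heart factor, differed by −0.35 ± 0.13 (adjusted p = 0.0931) and Tbx3 by −0.35 ± 0.30 (adjusted p = 0.523). Kdr, the Vegf receptor that marks blood and vessel progenitors, was called at 1.27 ± 0.23, while Etv2 (−0.08 ± 0.09), Tal1 (−0.18 ± 0.14) and Lmo2 (0.03 ± 0.13), factors of the committed blood and endothelial lineage, were not.

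**Figure D2:**
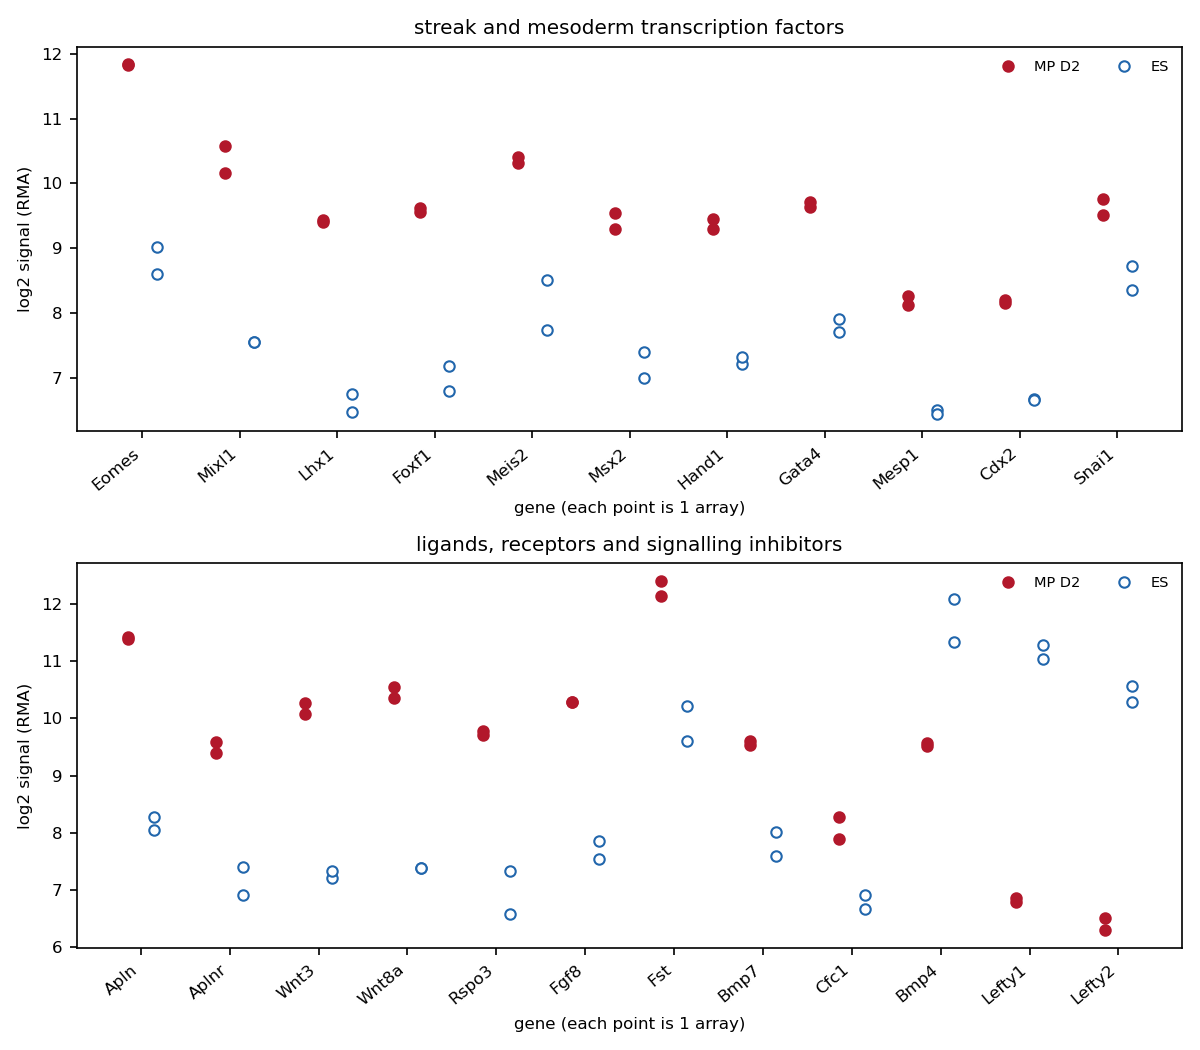
Log2 signal of streak and mesoderm transcription factors (top) and of ligands, receptors and inhibitors (bottom) on each array, MP D2 filled and ES open. The 2 MP D2 arrays lie above both ES arrays for every gene except Bmp4, Lefty1 and Lefty2, where they lie below.

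Alox15, a lipoxygenase of arachidonic and linoleic acid, had the highest log2 fold change outside the microRNAs. It read 11.80 and 11.76 in MP D2, against 7.93 and 7.27 in ES (4.18 ± 0.19, adjusted p = 8.03e-08). Ppp4r4, a regulatory subunit of protein phosphatase 4, read 10.67 and 10.65 in MP D2, against 7.54 and 7.24 in ES (3.27 ± 0.13). Cyp26a1, which degrades retinoic acid, read 9.45 and 9.46 in MP D2, against 6.50 and 6.65 in ES (2.88 ± 0.10). For all 3 the lower MP D2 array stood more than 2 log2 units above the higher ES array. Piezo2, a mechanically gated channel chosen after its values were seen, was called at 2.76 ± 0.16, and so were the immediate early genes Fos (1.91 ± 0.28) and Fosb (1.89 ± 0.24, chosen likewise). Egr1 (0.01 ± 0.21) and Jun (−0.14 ± 0.25), of the same class, were not called.

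Bmp ligands and receptors had 1 of 18 called higher and 2 lower, and the ligands were opposed. Bmp4, the ligand added to the medium, read 9.58 and 9.51 in MP D2, against 11.32 and 12.07 in ES (−2.15 ± 0.32, adjusted p = 0.00069). Bmp7 read 9.60 and 9.53 in MP D2, against 8.02 and 7.60 in ES (1.76 ± 0.29). One ligand was thus lower and the other higher in MP D2 on both arrays. Of the 25 targets and antagonists of Bmp 3 were called higher and 1 lower, with a median of 0.31. Smad6, an inhibitory Smad induced by Bmp, was called at 1.35 ± 0.12, and Grem1, a secreted antagonist also made by fibroblasts, at −3.18 ± 0.11. The direct targets Id1 (0.94 ± 0.34, adjusted p = 0.0911), Id2 (0.85 ± 0.26, adjusted p = 0.0456) and Id3 (1.00 ± 0.16, adjusted p = 0.00106) were above ES but not called, Id3 falling just short of the fold threshold, which it passed without ES replicate 1 (1.16) or MP D2 replicate 2 (1.17). Without ES replicate 2 the number of ligands and receptors called higher was 2, Bmp2 (1.13) joining Bmp7.

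Nodal signalling genes had 4 of 21 called higher and 3 lower. Lefty1 read 6.86 and 6.80 in MP D2, against 11.28 and 11.04 in ES (−4.33 ± 0.27, adjusted p = 7.83e-07), and Lefty2 read 6.30 and 6.51 in MP D2, against 10.28 and 10.55 in ES (−4.02 ± 0.32). The Lefty genes are induced by Nodal signals and block them. Eomes and Mixl1, also known as Nodal targets and on the same list, were called higher. Cfc1, a Nodal co-receptor, was called higher at 1.29 ± 0.19, while its relative Tdgf1 read 13.03 and 13.04 in MP D2, against 13.01 and 13.10 in ES (−0.02 ± 0.14). Inhba, which encodes the activin A subunit, read 6.74 and 6.65 in MP D2, against 11.04 and 11.38 in ES (−4.52 ± 0.34). The feeders' part in the ES values of Inhba was not tested.

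Wnt ligands, receptors and modulators had 6 of 30 called higher, while 2 were called lower only when ES replicate 2 was left out. After Wnt8a and Wnt3 came Rspo3, an enhancer of Wnt signals, which read 9.71 and 9.78 in MP D2, against 7.34 and 6.58 in ES (2.78 ± 0.24). The receptors Ror1 (1.54 ± 0.12) and Fzd10 (1.24 ± 0.12) were called, as was Wls, needed for Wnt secretion, at 1.05 ± 0.26, though Wls lost its call in 3 of the 4 settings that left out 1 array (adjusted p 0.0757 to 0.13), keeping it without ES replicate 1. Its value was 0.57 without ES replicate 2, and a limma fit of the 4 arrays alone gave an adjusted p of 0.113. Among targets and inhibitors, Axin2, a feedback inhibitor and common Wnt readout, read 9.67 and 9.68 in MP D2, against 8.02 and 8.39 in ES (1.47 ± 0.14), and Sp5 read 8.67 and 8.60 in MP D2, against 7.52 and 7.64 in ES (1.05 ± 0.12). Sp5 fell to 0.99, just under the fold threshold, without ES replicate 1. Lef1 (0.87 ± 0.18, or 1.02 and called without ES replicate 2) and Nkd1 (0.74 ± 0.09) were below the fold. On the other side, the secreted inhibitor Sfrp1 read 8.94 and 8.54 in MP D2, against 11.08 and 10.88 in ES (−2.24 ± 0.20).

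The promoters of Sp5 and Mesp1 are shown because Sp5 is a known Wnt target and Mesp1 a known target of T-box factors, and both were called higher. Each is 300 bases around the RefSeq start site (GRCm38.p6), most of them upstream, read along the gene. Capitals mark the Tcf/Lef core CTTTGA, or TCAAAG where it lies on the other strand, and the T-box sequence TCACACCT.
Sp5, chr2:70474673-70474972, plus strand: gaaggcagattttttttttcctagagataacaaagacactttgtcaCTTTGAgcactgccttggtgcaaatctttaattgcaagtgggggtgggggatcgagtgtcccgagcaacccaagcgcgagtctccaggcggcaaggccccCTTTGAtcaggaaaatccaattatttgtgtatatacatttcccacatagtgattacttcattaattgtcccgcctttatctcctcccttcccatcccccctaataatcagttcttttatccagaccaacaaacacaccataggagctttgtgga
Mesp1, chr7:79793541-79793840, minus strand: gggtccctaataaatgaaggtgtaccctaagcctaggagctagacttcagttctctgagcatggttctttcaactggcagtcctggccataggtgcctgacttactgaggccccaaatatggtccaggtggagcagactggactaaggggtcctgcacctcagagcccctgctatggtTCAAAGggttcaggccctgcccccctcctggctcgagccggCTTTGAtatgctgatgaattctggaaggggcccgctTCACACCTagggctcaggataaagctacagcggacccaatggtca
Sp5 held CTTTGA at −204 and −104 from the start site. Mesp1 held it on either strand at −72 and −31, with TCACACCT at 6. Searched on both strands over 18195 promoters of 14680 genes, CTTTGA occurred in 13.6% of all promoters, in 14.5% of those of higher genes (32 of 221) and in 13.4% of those of lower genes (88 of 655). TCACACCT occurred in 1.36% of promoters of higher genes, 0.611% of those of lower genes and 1.09% of all. The shares among called genes were thus close to those among all promoters, and the 2 promoters are examples, not a pattern.

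Fgf genes had 4 of 27 called higher and 3 lower, and the ligands were opposed here too. Fgf8 read 10.29 and 10.28 in MP D2, against 7.86 and 7.54 in ES. Fgf5, a marker of the primed epiblast, read 11.42 and 11.22 in MP D2, against 10.35 and 9.85 in ES (1.22 ± 0.14), or 0.97 and no call without ES replicate 2. Fgf4, the ligand of naive cells, read 8.57 and 8.67 in MP D2, against 10.31 and 10.96 in ES (−2.01 ± 0.19). The feedback inhibitor Spry4 was called at −1.21 ± 0.20. Without ES replicate 2 the list had 2 genes higher, and without MP D2 replicate 1 it had 5 lower.

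Most core pluripotency genes were not called. Pou5f1 read 12.78 and 12.68 in MP D2, against 12.47 and 12.59 in ES (0.20 ± 0.25, adjusted p = 0.682), and Nanog read 12.31 and 12.31 in MP D2, against 12.01 and 12.16 in ES (0.23 ± 0.12, adjusted p = 0.276). Sall4 differed by 0.24 ± 0.09 (adjusted p = 0.11). Sox2 was called lower, averaging 10.95 in MP D2, against 11.94 and 12.31 on the ES arrays (−1.17 ± 0.15, adjusted p = 0.000233). The Sox2 value was −0.99 without ES replicate 2, which takes it under the fold threshold. In all, 5 of 17 core genes were called lower, with a median of −0.10. The others were Dppa2 (−4.50 ± 0.33), Dppa4 (−3.08 ± 0.14), Gdf3 (−2.27 ± 0.12) and Utf1 (−2.18 ± 0.26).

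Naive pluripotency genes fell as a body. Of 30 measured, 24 were called lower, all 30 had a negative value, and the median was −1.93. Nr0b1 (Dax1), an orphan nuclear receptor of ES cells, read 6.20 and 6.55 in MP D2, against 11.36 and 12.73 in ES (−5.67 ± 0.51, adjusted p = 1.68e-05). Zfp42 (Rex1), the standard naive reporter gene, read 6.33 and 6.47 in MP D2, against 9.95 and 10.72 in ES (−3.93 ± 0.21). Esrrb, a nuclear receptor that maintains self-renewal, read 6.70 and 6.87 in MP D2, against 9.70 and 10.46 in ES (−3.30 ± 0.20). For these 3 the higher MP D2 array was more than 2 log2 units below the lower ES array, whereas Klf4 (−1.64 ± 0.22), Tfcp2l1 (−2.18 ± 0.14) and Klf2 (−1.03 ± 0.17) fell less. Klf2 came to −0.80 without ES replicate 2 and to −0.96 without MP D2 replicate 1, and lost its call in both. Dppa5a (−4.63 ± 0.53), Dnmt3l (−4.40 ± 0.34), Jam2 (−3.88 ± 0.21), Nr5a2 (−3.31 ± 0.24) and Tet2 (−3.07 ± 0.21) were called lower as well. Prdm14 (−0.25 ± 0.19, adjusted p = 0.46) and Tbx3 were members that were not.

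The falls of naive genes and of fibroblast genes leaned on different ES arrays. ES replicate 2 was above ES replicate 1 for 28 of the 30 naive genes, while ES replicate 1 was above ES replicate 2 for 35 of the 40 fibroblast genes, against 49.9% of all genes. The core list leaned as the naive list did, with ES replicate 2 above ES replicate 1 for 16 of 17 genes. The mean log2 signal of the naive list was 7.82 and 7.87 in MP D2, against 9.72 and 10.28 in ES. The naive list kept most of its calls under either choice, with 25 of 30 lower without ES replicate 1 and 22 of 30 without ES replicate 2.

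**Figure D3:**
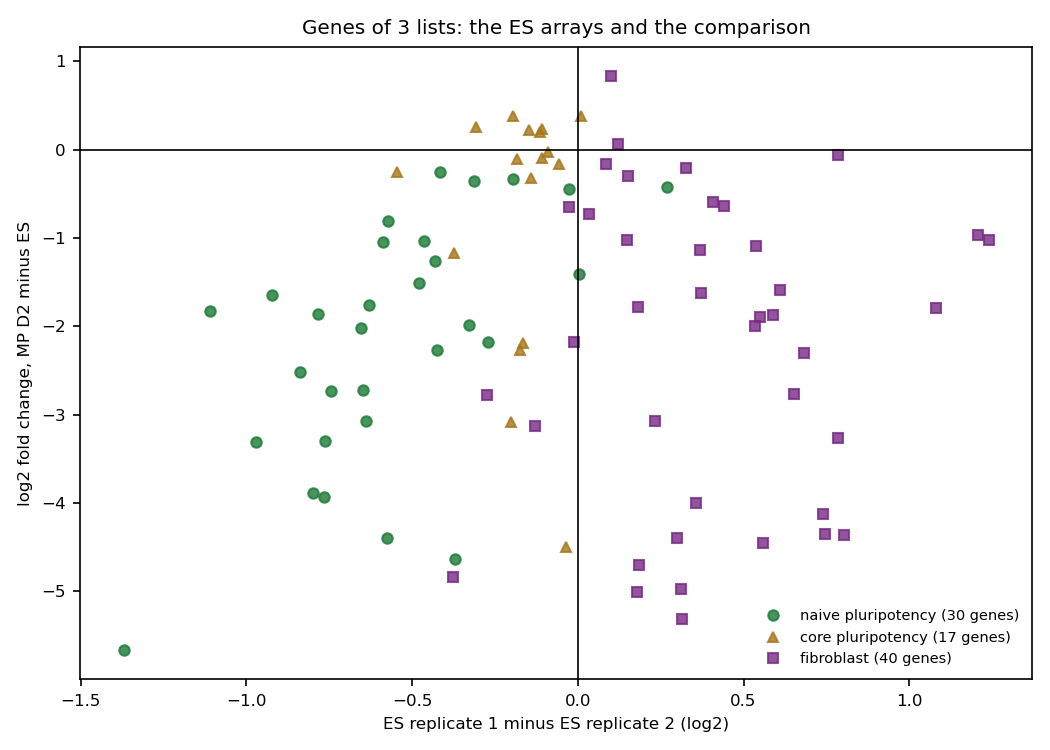
Each point is a gene of the naive (30), core (17) or fibroblast (40) list, with the difference between the ES arrays (replicate 1 minus replicate 2, log2) on the horizontal axis and the log2 fold change of MP D2 minus ES on the vertical axis. Naive and core genes lie mostly left of 0 and fibroblast genes mostly right of it. Members of the naive and fibroblast lists reach log2 fold changes below −5.

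Of 20 genes of the formative and primed epiblast 6 were called higher and 1 lower (2 without ES replicate 1, when Dnmt3a joined), with 11 positive and a median of 0.23. The 1 lower was Foxp1, a forkhead factor (−1.28 ± 0.19). Otx2 read 11.39 and 10.98 in MP D2, against 11.19 and 11.11 in ES (0.04 ± 0.12), and Dnmt3b, the de novo methyltransferase of the epiblast, differed by 0.42 ± 0.11. Pim2, a serine/threonine kinase gene on the X chromosome, was called at 1.64 ± 0.15. Igfbp3, an Igf binding protein gene, read 11.90 and 11.99 in MP D2, against 10.06 and 9.52 in ES (2.15 ± 0.18). Dnmt3a, the other de novo methyltransferase, was at −0.76 ± 0.16 and not called, unlike Dnmt3l above, their catalytically inactive partner.

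Some germline genes that ES cells express in the naive state were lower too. Of 18 germline and 2-cell-stage genes 4 were called lower and 3 had a positive value. Mael, of the piRNA pathway, read 4.75 and 4.90 in MP D2, against 7.61 and 7.97 in ES (−2.96 ± 0.12), and Sycp3, of the synaptonemal complex, read 4.85 and 4.76 in MP D2, against 7.45 and 7.99 in ES (−2.92 ± 0.16). Ddx4 (Vasa) was called at −3.22 ± 0.14 and Trap1a at −1.37 ± 0.15. Tdrd12, chosen after its values were seen, was at −3.58 ± 0.18. ES replicate 2 was the higher ES array for all of these. The count of 4 became 6 without ES replicate 1 and 7 without MP D2 replicate 2. The 2-cell-stage genes Tcstv3 (0.02 ± 0.13) and Usp17lc (−0.02 ± 0.09) were near 0.

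Outside the fibroblast list, the lowest log2 fold changes included genes that were higher in ES replicate 1 and others that were higher in ES replicate 2. Tnc, a matrix glycoprotein, read 7.05 and 7.31 in MP D2, against 12.98 and 12.95 in ES (−5.79 ± 0.23). Emp1, a membrane protein, read 6.37 and 6.58 in MP D2, against 11.66 and 11.72 in ES (−5.22 ± 0.12). Igfbp7, a secreted Igf binding protein, was at −5.14 ± 0.12. Ptgs2, the inducible cyclooxygenase, was at −4.96 ± 0.32, and Bnc2, a zinc finger factor, at −4.23 ± 0.19. Triml2 (−4.51 ± 0.34), Zfp980 (−4.53 ± 0.36), Zfp640 (−5.10 ± 0.38) and Gm6083 (−4.20 ± 0.33) were each higher in ES replicate 2. In the fibroblast list the lowest were Bgn (−5.31 ± 0.43), Postn (5.14 and 5.39 in MP D2, against 10.36 and 10.18 in ES), Acta2 (−4.98 ± 0.13), Dcn (−4.83 ± 0.15) and Thbs1 (−4.71 ± 0.24). What part the feeders had in any single fall was not tested. Of the 15 macrophage and immune genes only Lyz2 was called lower (−3.52 ± 0.19), with Ptprc (−0.08 ± 0.11) and Csf1r (−0.03 ± 0.10) near 0, and a second one was called without ES replicate 2 or without MP D2 replicate 2.

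Genes of the epithelial to mesenchymal transition moved in both directions, 3 of 14 higher and 3 lower. Snai1, the repressor of Cdh1 at the streak, read 9.51 and 9.76 in MP D2, against 8.72 and 8.36 in ES (1.09 ± 0.15, adjusted p = 0.000495). It came to 0.91 without ES replicate 2 and to 0.97 without MP D2 replicate 2, both under the fold threshold. Eomes and Mesp1 were the other rises. Snai2 read 7.19 and 7.09 in MP D2, against 10.20 and 9.65 in ES (−2.78 ± 0.27), and Zeb1 read 7.87 and 7.83 in MP D2, against 9.96 and 9.14 in ES (−1.70 ± 0.24). Snai2, Zeb1 and Prrx1 (−4.12 ± 0.28), the 3 falls, are also expressed by fibroblasts and were higher in ES replicate 1. Zeb2 differed by 0.45 ± 0.21 (adjusted p = 0.187).

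Cdh1 and Cdh2 were not called at this step. Cdh2 was lower on both MP D2 arrays than on either ES array. Like most fibroblast genes it was higher in ES replicate 1, and the feeders' part in its value was not tested. Cdh1 read 12.17 and 12.15 in MP D2, against 12.37 and 12.43 in ES (−0.24 ± 0.09, adjusted p = 0.114), and Cdh2 read 9.86 and 9.85 in MP D2, against 10.69 and 10.07 in ES (−0.53 ± 0.16, adjusted p = 0.0502). Epcam differed by 0.05 ± 0.16 and Cldn3 by 0.03 ± 0.15. Cdh3 (P-cadherin), in contrast, read 8.54 and 8.33 in MP D2, against 10.56 and 10.37 in ES (−2.03 ± 0.12, adjusted p = 5.54e-07). In the epithelial list 3 of 31 were called higher and 4 lower. The simple keratin Krt18 (1.86 ± 0.20) and the desmosomal gene Dsp (1.54 ± 0.22) rose, and Cldn4 (−1.65 ± 0.23), Esrp2 (−1.77 ± 0.19), Jup (−1.22 ± 0.14) and Grhl3 (−1.17 ± 0.16) fell. Krt8 was called at 1.23 ± 0.15, or 0.97 and no call without ES replicate 2.

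Mesenchymal adhesion and matrix genes had 12 of 34 called lower, 9 of 34 positive and a median of −0.82. ES replicate 1 was above ES replicate 2 for 27 of the 34. Itga4 (−2.43 ± 0.21), Cd44 (−3.01 ± 0.14), Nid1 (−3.76 ± 0.23) and Flrt2 (−3.70 ± 0.21) were among the called, and Vim (−0.38 ± 0.25) and Fn1 (−0.96 ± 0.20) were not, though Fn1 was called without ES replicate 2 (−1.04) and without MP D2 replicate 2 (−1.03). Guidance genes had 8 of 36 called higher and 3 lower, Apln and Aplnr among those that were higher. Epha1 read 10.85 and 10.42 in MP D2, against 9.16 and 8.84 in ES (1.64 ± 0.14), and the ligand gene Efna3 read 9.98 and 9.90 in MP D2, against 8.49 and 8.62 in ES (1.38 ± 0.22). Efna1 was called at 1.15 ± 0.18. Nrp1 (−1.85 ± 0.26), Sema3e (−1.53 ± 0.24) and Sema3c (−1.21 ± 0.25) were called lower, and each was higher in ES replicate 1 than in ES replicate 2. Sema3c lost its call without ES replicate 1 (−0.83), without MP D2 replicate 2 (adjusted p = 0.0669) and in a limma fit of the 4 arrays alone (adjusted p = 0.0613). Without ES replicate 2 the number called higher was 5, with Cxcr4 (0.86) and Efnb2 (0.97) among those lost.

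Of 26 Hox, Cdx and other posterior patterning genes 2 were called higher, Cdx2 and Meis2, and 3 lower. Cdx2 read 8.20 and 8.15 in MP D2, against 6.66 and 6.65 in ES (1.52 ± 0.09, adjusted p = 9e-07), and Cdx1 differed by 0.19 ± 0.12. Hoxb1, among the first Hox genes of the streak, was at 0.58 ± 0.11 and not called. Hoxc8 (−2.45 ± 0.28), Hoxc6 (−1.35 ± 0.23) and Hoxc5 (−1.06 ± 0.16) were called lower and were higher in ES replicate 1. Hoxc5 lost its call without ES replicate 1 (−0.98) and without MP D2 replicate 2 (−0.94).

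Markers of other lineages were read beside these, where 1.36% of all genes were called higher and 3.58% lower. Of 23 definitive endoderm genes 4 were called higher, Lhx1, Gata4, Krt8 and Cxcr4, and 2 lower, Sfrp1 and Trh (−1.74 ± 0.16), with a median of 0.04. Without ES replicate 2 Krt8 and Cxcr4 lost their calls, which left 2 higher. Sox17, of definitive endoderm, read 6.29 and 6.37 in MP D2, against 6.31 and 6.34 in ES. Of 19 visceral and parietal endoderm genes 5 were called lower, with 7 positive and a median of −0.28. These were the basement membrane gene Lama1 (−1.53 ± 0.46), the matrix gene Sparc (−1.09 ± 0.18), Thbd (−1.86 ± 0.13), Plat (−1.60 ± 0.25) and Dab2 (−2.19 ± 0.63), and all but Lama1 were higher in ES replicate 1 than in ES replicate 2. Lama1 and Dab2 lost their calls when any 1 of the 4 arrays was left out, and Sparc without ES replicate 1 (−0.82) or MP D2 replicate 2 (−0.94), so that 2 or 3 of the 5 calls were left in each of these settings. Afp (0.14 ± 0.09), Ttr (0.10 ± 0.12) and Apoa1 (0.13 ± 0.17), secreted products of visceral endoderm, were not called. Of 20 neural genes 1 was called higher, the zinc finger factor Zfp521 (1.36 ± 0.14), and 3 lower, Ncam1 (−1.45 ± 0.19), Tubb3 (−1.41 ± 0.19) and Gbx2 (−1.04 ± 0.23), with a median of −0.07. Gbx2 lost its call without ES replicate 2 (−0.75) and without MP D2 replicate 1 (−0.83). The neural factors Sox1 (−0.06 ± 0.14) and Pax6 (−0.90 ± 0.17) were not called, though Pax6 came to −1.19 and was called lower without ES replicate 2. Of 11 trophectoderm genes 4 were called higher, but these were Cdx2, Eomes, Hand1 and Ascl2, and the first 3 also stand in the posterior, streak and lateral mesoderm lists. Ascl2 (1.07 ± 0.21) came to 0.80 without ES replicate 1 and to 0.96 without MP D2 replicate 1 and lost its call in both, which left 3. Elf5 (0.12 ± 0.18) and Gata3 (0.31 ± 0.27) were not called. In the retinoic acid list Cyp26a1 rose beside the receptor gene Rxrg (1.17 ± 0.12), while the binding protein gene Crabp1 read 9.75 and 9.66 in MP D2, against 13.25 and 12.76 in ES (−3.30 ± 0.18). The synthesis gene Aldh1a2 differed by −0.42 ± 0.13.

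Cholesterol synthesis was the 1 list of 40 in which every measured member had a positive value, 21 of 21, with a median of 0.71. Of these 5 were called. Ebp, the sterol isomerase, read 10.39 and 10.54 in MP D2, against 8.72 and 8.72 in ES (1.75 ± 0.14, adjusted p = 5.81e-06), and Msmo1, the sterol methyl oxidase, read 12.53 and 12.57 in MP D2, against 11.44 and 11.25 in ES (1.21 ± 0.09). Lss (1.11 ± 0.15), Nsdhl (1.08 ± 0.10) and the sterol carrier Stard4 (1.00 ± 0.13) completed the 5, with Hmgcs1 (1.00 ± 0.13) and Mvd (1.00 ± 0.14) just under the threshold. The count was 3 without ES replicate 2, when Lss (0.99) and Nsdhl (0.96) lost their calls. Stard4 lost its call without ES replicate 1 or MP D2 replicate 1 (0.88 in both) and with each array centred on its median (0.99), and Hmgcs1 (1.20) and Mvd (1.07) gained one without ES replicate 1. The ES medium held FCS, and the part of the medium was not tested.

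Other metabolic lists moved little. Of 26 glycolysis genes 3 were called lower, among them Pdk1 (−1.67 ± 0.10), which restrains entry of pyruvate into the citric acid cycle, and Pfkp (−1.84 ± 0.19). Hk2 (−0.71 ± 0.13) and Slc2a1 (−0.20 ± 0.13) were not called. By limma 0 of 26 respiration genes were called (5 had an unadjusted p under 0.05), as were 0 of 23 amino acid genes (12 had one) and 0 of 28 G1 cell cycle genes (16 had one). Over all 18716 genes 5804 had an unadjusted limma p under 0.05. Without ES replicate 2, 2 amino acid genes and 1 cell cycle gene were called. The 12 housekeeping genes also had 0 calls (3 had an unadjusted p under 0.05) and a median of −0.08, with Actb at 0.04 ± 0.07.

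**Figure D4:**
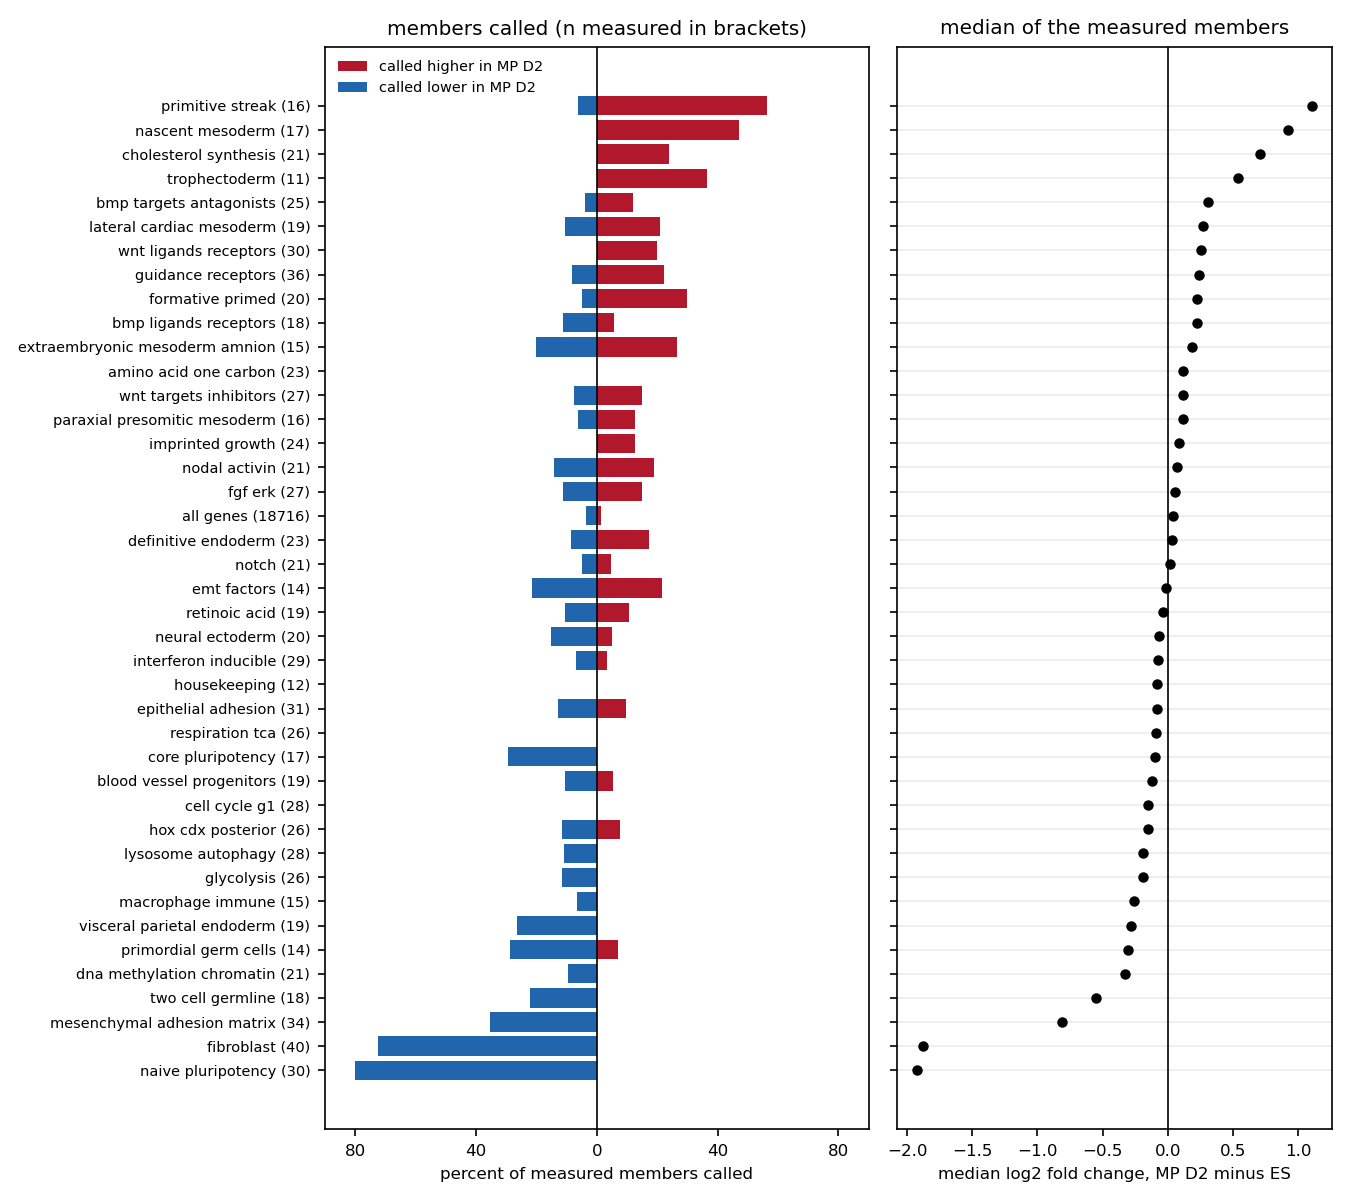
Percent of the measured members of each of 40 gene lists, and of all 18716 genes, called higher (right) or lower (left) in MP D2 than in ES, and the median log2 fold change of the members. Primitive streak (median 1.11) and nascent mesoderm (0.92) stand at the top, and naive pluripotency (−1.93) and fibroblast genes (−1.88) at the bottom.

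By chromosome, the X held the largest share of higher genes. Of 668 X-linked genes 30 were called higher (4.49%), against 21 of 636 (3.30%) on chromosome 12 and at most 2.67% on any other, the 21 including the 8 microRNA loci. On the X 26 genes were called lower (3.89%), against 3.58% of all genes. Rtl8c, a retrotransposon-derived gene with near-identical copies beside it, read 11.51 and 11.32 in MP D2, against 7.83 and 7.75 in ES (3.63 ± 0.26), and the copies' part in this signal cannot be told apart. Apln, Ebp, Nsdhl and Pim2, described above, are X-linked too. Scml2, a Polycomb protein gene (2.34 ± 0.24), and Tmem185a (2.35 ± 0.16) were chosen after their values were seen. Xist, the RNA that silences an X chromosome, read 5.17 and 5.05 in MP D2, against 8.54 and 8.05 in ES (−3.18 ± 0.18, adjusted p = 3.96e-07). Like most fibroblast genes Xist was higher in ES replicate 1, and the feeders' part in its value was not tested.

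To see which differences are shared with cells of the same day, Foxa2-positive cells with low CD24 sorted on day 2 (F+CD24low D2, the endoderm progenitors) were set beside MP D2. This direct comparison does not use the ES arrays. F+CD24low D2 cells came from the endoderm medium (activin A at 12 ng/ml) without the Bmp4 and activin A added for mesoderm. Medium and gate thus differed together between MP D2 and F+CD24low D2 and cannot be told apart. With the same thresholds 101 genes (0.54%) were called higher in MP D2 and 121 (0.647%) lower. The naive list had 0 of 30 called by limma (7 had an unadjusted p under 0.05) and a median of 0.04, and the fibroblast list had 1 call. The Mir302 cluster was also not called. Mir302a read 9.57 and 10.22 in MP D2 and 9.61 and 8.45 in F+CD24low D2 (0.87, adjusted p = 0.659). Cholesterol synthesis had 0 of 21 called (1 had an unadjusted p under 0.05) and a median of −0.08, and Alox15 was called at 1.14. In this comparison 2370 of all 18716 genes had an unadjusted limma p under 0.05. Of the 101 higher genes 14 were X-linked, as are 668 of all 18716 genes. Against ES, F+CD24low D2 also had its largest share of higher genes on the X (18 of 668, 2.69%). Chromosomes 12 (2.52%) and 18 (2.44%) came close to it there.

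Among the highest values against F+CD24low D2 were factors of lateral mesoderm and targets of Bmp. Of these groups only MP D2 had Bmp4 added to its medium, and the part of the medium in these values was not tested. Meis2 read 10.31 and 10.40 in MP D2, against 6.71 and 6.97 in F+CD24low D2 (3.52, adjusted p = 0.00035), and Foxf1 read 9.61 and 9.56 in MP D2, against 6.35 and 6.45 in F+CD24low D2 (3.19). Id2 read 12.29 and 12.06 in MP D2, against 9.17 and 9.75 in F+CD24low D2 (2.72), and Id1 was at 2.47. Wnt5a, a noncanonical Wnt ligand, was called at 2.56 here although it was not called against ES (−0.45 ± 0.11), and so was AU015836 at 2.56. Mesp1 (1.74), Hand1 (1.92), Cdx2 (1.56) and Bmp4 (1.48) were called as well, whereas Eomes (0.26), Lhx1 (0.06) and Wnt8a (−0.06) were not.

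Among the lowest values against F+CD24low D2 were Lefty1 (−4.61) and Lefty2 (−3.50), Klhl4 (−3.96) and Foxa2 (−3.26), the gene the gate used. Here too the part of the different media was not tested. Srgn, a proteoglycan core protein gene, read 6.40 and 6.41 in MP D2, against 12.23 and 11.89 in F+CD24low D2 (−5.65, adjusted p = 0.00861), and Cubn, an endocytic receptor gene of visceral endoderm, read 5.86 and 5.39 in MP D2, against 10.46 and 9.77 in F+CD24low D2 (−4.49, adjusted p = 0.0108). The calls of both were lost in 3 of the settings that left out 1 array, with values between −5.66 and −4.14. Lefty1 in F+CD24low D2 (11.57 and 11.32) was thus close to its level in ES (11.28 and 11.04), and of these 3 groups MP D2 was the one in which it was low.

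MP cells with the same gate on day 4 (MP D4) were then set beside MP D2. They were a separate sort, and their descent from MP D2 cells was not traced. With the same thresholds 229 genes (1.22%) were called higher in MP D4 than in MP D2 and 96 (0.513%) lower. Hand1 read 11.12 and 10.92 in MP D4, against 9.29 and 9.46 in MP D2 (1.65). Foxf1 read 11.55 and 11.38 in MP D4, against 9.61 and 9.56 in MP D2 (1.88). Cdx2 read 10.84 and 10.80 in MP D4, against 8.20 and 8.15 in MP D2 (2.64). For these mesoderm genes MP D4 lay further from ES than MP D2 did, in the same direction. Of the 16 streak genes 5 were called lower in MP D4, Wnt8a (−2.23) and Eomes (−1.83) among them, and 1, Lefty2, was called higher, with 4 positive. Apln, of the nascent mesoderm list, was at −1.49. Fgf5 (−2.55) and Otx2 (−2.35), of the primed epiblast, also fell.

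The Mir302 loci were among the lowest values between MP D4 and MP D2. Mir302a read 6.83 and 7.59 in MP D4, against 9.57 and 10.22 in MP D2 (−2.69, adjusted p = 0.0115), with Mir302c at −2.65 and Mir302b at −2.64. Without MP D2 replicate 2 these 3 falls were −2.36, −2.39 and −2.33 and were not called (adjusted p 0.0583 to 0.116). Without MP D4 replicate 1, Mir302a (−2.31) and Mir302b (−2.02) lost their calls too. Nefl (−2.87) and Slc27a2 (−2.94), a fatty acid transport gene, were the only genes below them in value.

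A further set was lower in MP D2 than in both ES and MP D4. Bmp4 read 12.31 and 12.06 in MP D4, against 9.58 and 9.51 in MP D2 (2.64). Lefty1 read 9.76 and 9.97 in MP D4, against 6.86 and 6.80 in MP D2 (3.03). Cdh3 read 10.85 and 10.76 in MP D4, against 8.54 and 8.33 in MP D2 (2.37). Sfrp1 (2.61) did likewise. In ES, Lefty1, Cdh3 and Sfrp1 were higher in replicate 1 and Bmp4 in replicate 2. The ES arrays carried fibroblast transcripts, and the feeders' part in these ES values was not tested. Since both comparisons use the MP D2 arrays, opposite signs in them are not independent. Hoxc8 (3.29) and Adgra2 (2.98), an adhesion G protein-coupled receptor gene, were also among the 5 highest values in MP D4 minus MP D2. Tgfb2 (3.57) and Cpm (2.98), not called between MP D2 and ES, completed the 5.

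**Figure D5:**
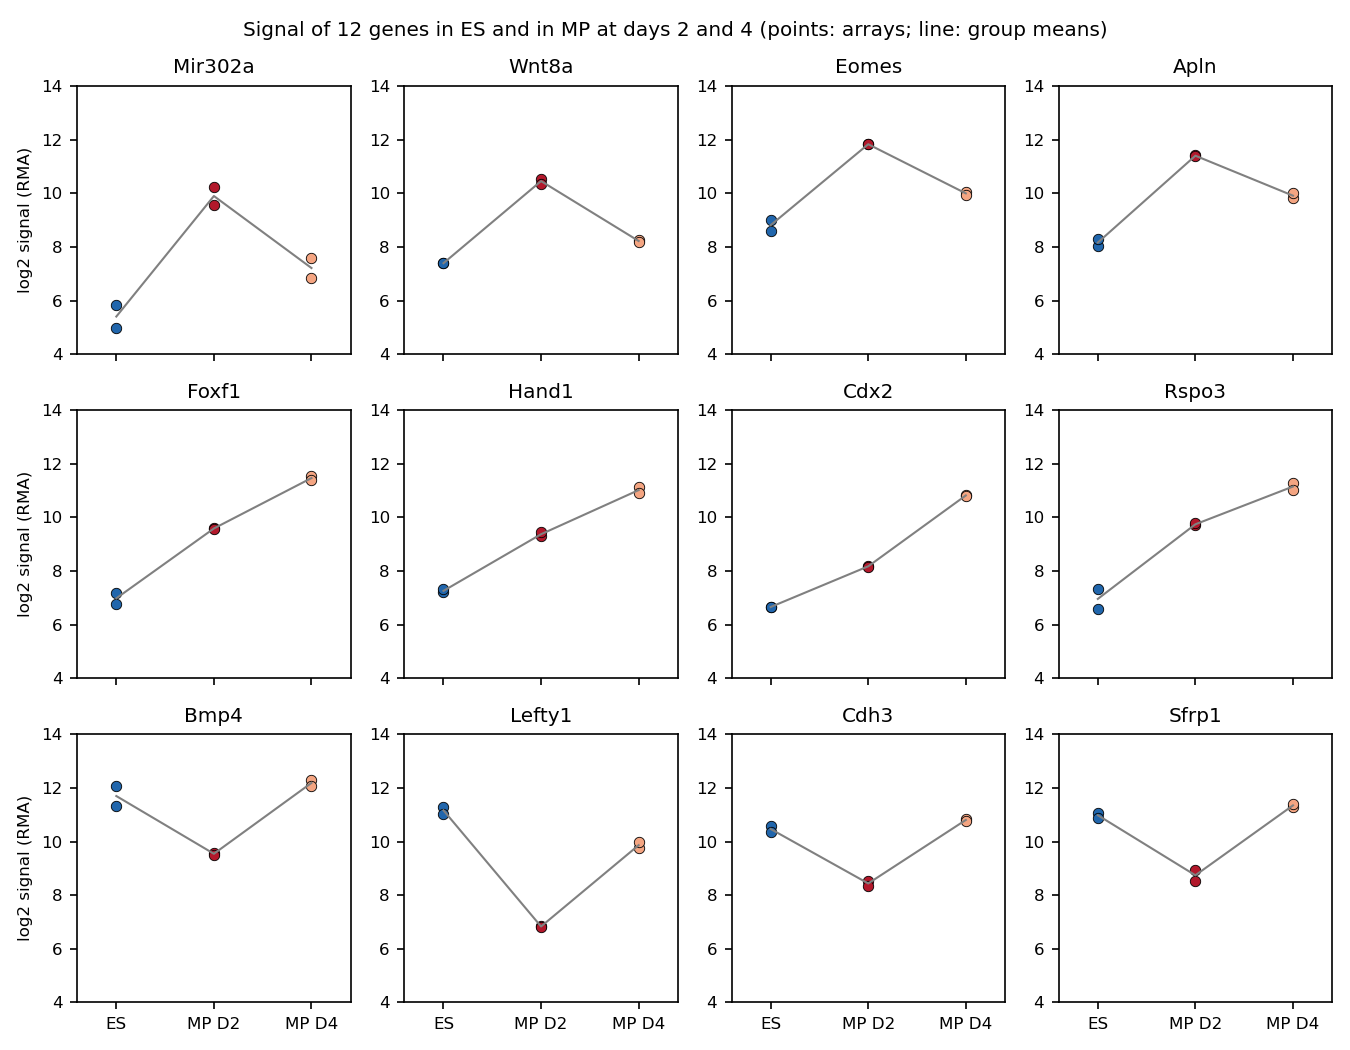
Log2 signal of 12 genes in ES, MP D2 and MP D4 (points are arrays, lines join group means). In the top row the signal is highest at day 2, Foxf1, Hand1, Cdx2 and Rspo3 in the middle row go up at both steps, and Bmp4, Lefty1, Cdh3 and Sfrp1 in the bottom row are lowest at day 2.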

How the data were processed

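The authors ran robust multichip average (RMA, oligo 1.48.0) on the 16 arrays as 1 set, and the deposited table holds log2 values by probe set and array, so that a difference in total RNA per cell is not visible and differences of dim genes are compressed. Array columns were matched to groups through the sample labels, and 0 columns belonged to no sample. From the 35556 deposited probe sets the 32000 of highest mean entered a limma fit (version 3.58.1, R 4.3.3) of 8 group means with 8 residual degrees of freedom, and p-values were adjusted by Benjamini-Hochberg over the 32000. A gene was read from its brightest probe set with a single symbol in the platform annotation (20427 of the 32000; 1400 had several symbols and 10173 none). No build is given for the probe sets, and coordinates are those of RefSeq entries matched by symbol. Each group has 2 arrays, and the p-values measure the spread between them, which may be technical in part since the labels do not name separate cultures. Their number limits the precision. The members and the gene lists were chosen with earlier results of these data known. The text names the sorting genes and those of the study, the 15 highest and 15 lowest called genes, the 5 lowest fibroblast genes, the first 4 and up to 6 called members of a list, and the 5 highest and 5 lowest genes of the other comparisons. MicroRNA loci, Larp7, Meg3, Rian and genes so marked were picked with their values in view. The fit was tested on simulated data. Alternatives were other filters, thresholds and probe-set rules, the 4 arrays alone, trend and robust estimation, centring, a replicate block and leaving out arrays.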

Additional observations from a re-analysis of the deposited data

How the results depend on the processing

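Of the 254 higher and 670 lower genes between MP D2 and ES, the 222 genes called between MP D2 and F+CD24low D2 and the 325 between MP D4 and MP D2, most alternatives moved the counts by less than 1.5 times. With the 16000 brightest probe sets 318 genes were lower and 214 were called between MP D4 and MP D2. On adjusted p alone there were 1550 higher, 1925 lower, 611 and 1414. With a log2 fold change beyond 2 there were 39, 206, 33 and 50, and with limma's treat 64, 284, 33 and 60. Counting every probe set gave 476 higher and 574 between MP D4 and MP D2. Leaving out 1 array gave 231 to 303 higher, 615 to 724 lower, 156 to 218 between MP D2 and F+CD24low D2 and 283 to 325 between MP D4 and MP D2. With a replicate block the counts were 254, 669, 222 and 326. Same-numbered arrays of MP D2 and ES correlated at 0.076 in their deviations (28 group pairs, −0.204 to 0.246). The labels do not say whether replicate numbers pair the arrays, and the main fit used no pairing. Named genes were rerun under the alternatives that keep the thresholds and read 1 value a gene. Of their 339 values 211 were called, 165 of these in all such settings that gave the value, and 0 were reversed. With the 16000 brightest probe sets only 237 of the 339 had a value. Arrays give no counts, and 2 a group limit what can be called.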
